A study of Mus musculus with 66 samples.

Results

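Brain endothelial and blood-brain barrier genes were followed through RNA sequencing of 5 spontaneous *Rorb* mutant mouse strains. The 10 genes were *Mfsd2a*, *Ly6c1*, *Ly6a*, *Cldn5*, *Slc2a1*, *Abcb1a*, *Slco1a4*, *Pecam1*, *Flt1* and *Tek*, out of 45706 gene identifiers. They were selected by name as genes of the endothelium and its barrier and on their levels in mutants against controls, since the low levels of *Mfsd2a* and *Ly6c1* in several mutants were already known from these libraries. Values of mutants against controls are therefore given as a description, and the fit across all genes supports nothing about them. How many of all genes likewise showed no overlap between such small groups was not counted. A lack of overlap is therefore a description too, and nothing is read from it. All 10 genes passed the filter on low counts in every comparison.

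The 66 libraries fell into 20 groups. Brain hemisections and spinal cords came from the same 24 animals, aged 7.9 to 9.6 weeks, and cortex, hippocampus and cerebellum from 6 other animals aged 7.0 weeks. *Rorb* encodes a nuclear receptor of the ROR family. Mice homozygous for h1 (3 animals), h2 (4), h3 (4) or h4 (4) were compared with the same 3 C57BL/6J mice, and mice homozygous for h5 (3) with 3 DBA/1J mice, in brain hemisection and spinal cord. For the 3 dissected regions, 3 h5/h5 and 3 DBA/1J mice were used. Sexes were mixed in every group. The h1 allele is a duplication that takes in the first exon of the *Rorb1* transcript, on C57BL/6J. The h2 and h3 alleles arose on the albino line B6(Cg)-Tyr c-2J/J and their causal changes are not known. The h4 allele is a premature stop in a line carrying Il1r1 tm1Imx, and h5 removes the start codon of *Rorb1* on DBA/1J. Each mutant line goes back to one spontaneous event. By their identifiers the C57BL/6J and h1/h1 mice belonged to the same series of animals, whereas h2/h2, h3/h3 and h4/h4 mice shared none with the controls. Line background, animal series and *Rorb* genotype therefore cannot be told apart for h2, h3 and h4. For brain and cord, C57BL/6J and h1/h1 mice were aged 8.0 weeks, h2/h2 mice 7.9 or 9.4 and h3/h3 mice 8.0 to 9.6. The h4/h4 mice were aged 8.4 to 8.6 weeks, DBA/1J mice 8.4 to 8.9 and h5/h5 mice 8.4 to 8.7. Every h4/h4 and DBA/1J mouse was older than every C57BL/6J mouse, so age cannot be told apart there either.

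Endothelial cells of brain capillaries seal the vessel wall with tight junctions, let little pass in vesicles, and carry nutrients and drugs across by transporters. *Mfsd2a* takes up lysophosphatidylcholine with bound omega-3 fatty acids and restrains vesicle transport. *Slc2a1* (GLUT1) brings in glucose, *Abcb1a* (P-glycoprotein) pumps drugs out, *Slco1a4* carries organic anions and *Cldn5* is the main claudin of the tight junction. *Ly6c1* and *Ly6a* (Sca-1) are GPI-anchored surface proteins of endothelium and some blood cells. *Pecam1* (CD31), *Flt1* (a VEGF receptor) and *Tek* (the angiopoietin receptor Tie2) mark endothelium in general. In whole tissue, fewer endothelial cells and less RNA per cell cannot be told apart.

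ROR receptors bind the half-site AGGTCA, so the 250 bases upstream of each gene's start were read from the RefSeq promoter table (GRCm38.p6) and searched for these letters on both strands. Of the 10 genes, 8 matched with 9 windows, and *Ly6a* and *Pecam1* did not. The letters were found once upstream of *Mfsd2a*, 213 bases before the start, and once in one of the windows of *Ly6c1*, 125 bases before the start, and in none of the other 7 windows. They are held by 14.0% of all 32851 windows of this length, and a match is no evidence of binding. The genes shown are those with the match and *Slc2a1*, which was low in the same mutants and has none. Capitals mark AGGTCA. *Mfsd2a* lies at chr4:122961189-122961438 (minus strand), *Ly6c1* at chr15:75048838-75049087 (minus strand) and *Slc2a1* at chr4:119108495-119108744 (plus strand).
Mfsd2a: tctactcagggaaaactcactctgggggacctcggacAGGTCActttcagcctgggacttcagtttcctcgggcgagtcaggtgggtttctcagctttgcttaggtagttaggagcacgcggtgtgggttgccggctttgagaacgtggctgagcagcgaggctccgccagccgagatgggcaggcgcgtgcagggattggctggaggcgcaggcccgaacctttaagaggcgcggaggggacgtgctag
Ly6c1: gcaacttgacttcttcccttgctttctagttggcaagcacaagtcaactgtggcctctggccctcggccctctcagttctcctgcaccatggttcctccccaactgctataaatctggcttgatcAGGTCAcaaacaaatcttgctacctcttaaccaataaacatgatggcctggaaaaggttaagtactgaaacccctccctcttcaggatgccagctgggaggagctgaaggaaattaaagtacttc
Slc2a1: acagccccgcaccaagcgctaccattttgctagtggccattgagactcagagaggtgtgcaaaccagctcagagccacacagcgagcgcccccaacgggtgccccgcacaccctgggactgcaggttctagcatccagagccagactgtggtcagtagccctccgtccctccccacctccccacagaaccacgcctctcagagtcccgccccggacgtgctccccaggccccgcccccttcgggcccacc

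Total counts per library ranged from 32889755 to 59120536. The targeted gene was read in every group first. *Rorb* in brain was 51.4 to 61.7 CPM (read counts scaled to the library size) in C57BL/6J, 35.0 to 37.6 in h1/h1, 27.6 to 31.02 in h2/h2, 51.0 to 55.4 in h3/h3 and 10.5 to 14.9 in h4/h4, and 74.4 to 82.2 in h5/h5 against 50.8 to 66.9 in DBA/1J. It overlapped the controls in h3/h3, so it does not check the h3 labels. Markers of spinal cord (*Hox* genes) summed to 156 to 195 CPM in the cords and at most 8.37 in the brains. In 1 h5/h5 mouse of the dissected regions the expression did not match the labelled sex. DBA/1J cortex replicate 1 stood apart, with the highest value of its group for all 10 genes. Reads of near-identical copies were split by estimation, most for *Abcb1a* with *Abcb1b* and for *Ly6c1* with *Ly6c2*, whose counts were not whole in 100% and 92.4% of libraries, so their levels are less certain than those of *Mfsd2a*, *Cldn5*, *Slc2a1*, *Pecam1*, *Flt1* and *Tek* (0% of libraries).

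**Figure D1:**
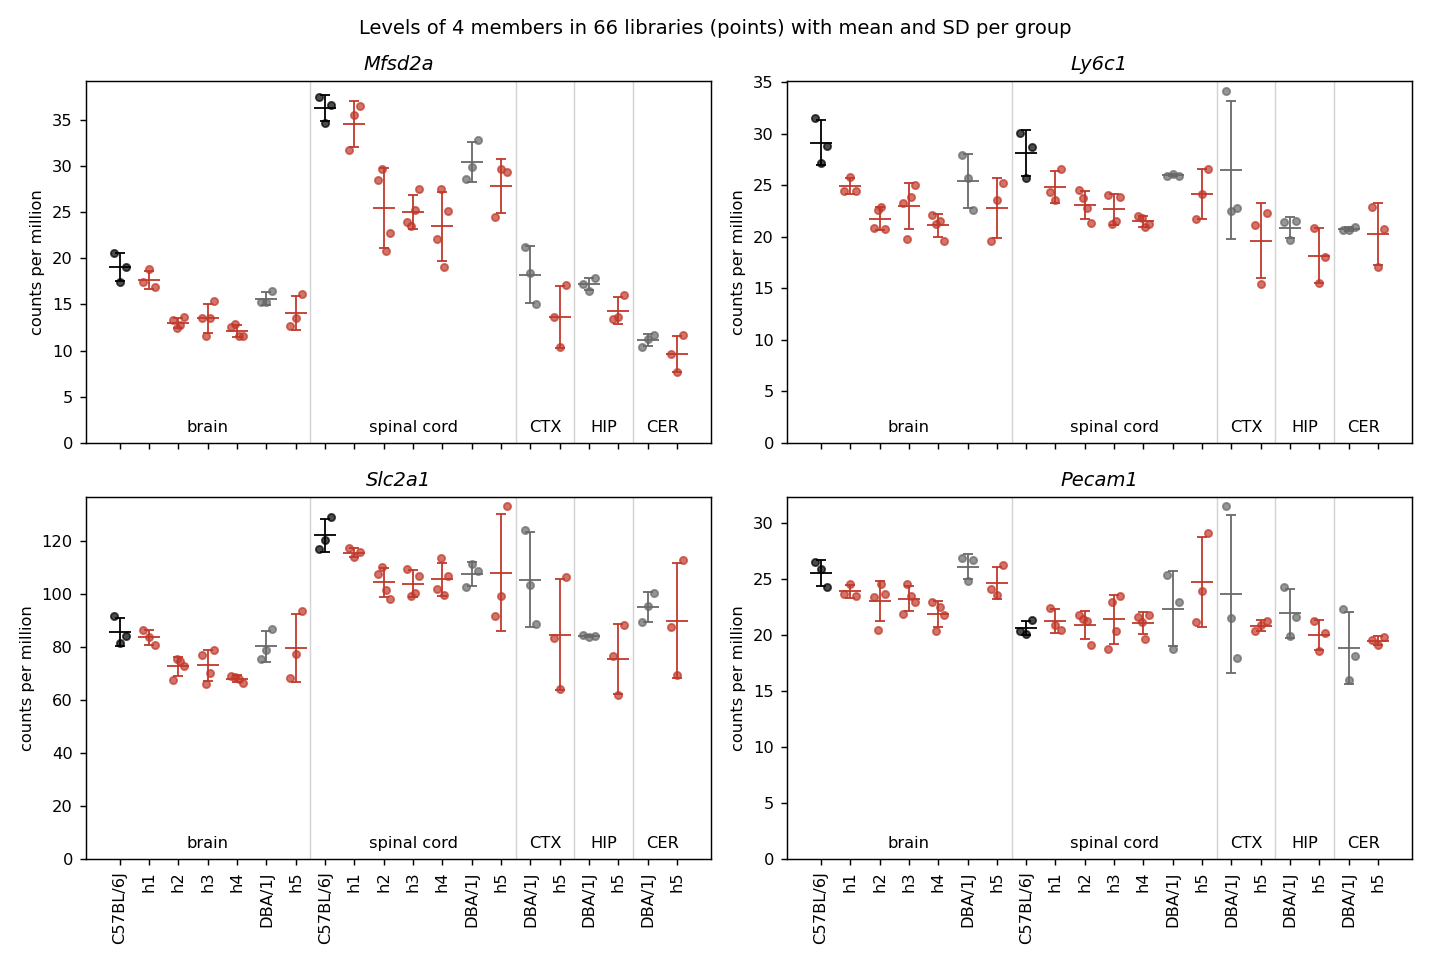
CPM of *Mfsd2a*, *Ly6c1*, *Slc2a1* and *Pecam1* in each of the 66 libraries (points), with the mean and SD of each group (bars), by tissue and genotype; CTX, HIP and CER are cortex, hippocampus and cerebellum. Every h2, h3 and h4 point of *Mfsd2a* lies below every C57BL/6J point in brain and in spinal cord, whereas *Pecam1* in spinal cord overlaps between these groups.

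The lipid transporter *Mfsd2a* had the most negative difference of the 10 genes in h2/h2, h3/h3 and h4/h4 mice, in brain and in spinal cord. In brain it was 20.6, 17.5 and 19.1 CPM in the 3 C57BL/6J mice. The h2/h2 mice had 13.3, 12.4, 12.7 and 13.6 CPM, and the h3/h3 mice 13.5, 11.6, 13.5 and 15.3 CPM. In h4/h4 mice it was 12.5, 12.9, 11.5 and 11.6 CPM. No mouse of these 12 reached the lowest control. The log2 difference from C57BL/6J was -0.55 (SE 0.07) in h2/h2, -0.49 (SE 0.09) in h3/h3 and -0.64 (SE 0.08) in h4/h4. The h1/h1 mice, at 17.4, 18.8 and 16.9 CPM, overlapped the controls (-0.10, SE 0.08).

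In spinal cord *Mfsd2a* was 37.5, 34.7 and 36.7 CPM in C57BL/6J. It was 28.5, 29.7, 20.8 and 22.8 CPM in h2/h2, where the first pair was aged 7.9 weeks and the second 9.4 weeks. The h3/h3 cords had 23.9, 23.5, 25.2 and 27.5 CPM and the h4/h4 cords 22.1, 27.6, 19.0 and 25.1 CPM. All 12 lay below all 3 controls again, with log2 differences of -0.51 (SE 0.09), -0.54 (SE 0.06) and -0.63 (SE 0.09). The h1/h1 cords, at 31.8, 35.6 and 36.5 CPM, overlapped them (-0.06). The differences in brain and in cord come from the same animals and the same 3 controls, so they are not independent of each other.

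The surface protein gene *Ly6c1* was 31.5, 27.1 and 28.8 CPM in C57BL/6J brain. The mutant brains had 24.4, 25.8 and 24.5 CPM in h1/h1, and 20.8, 22.6, 22.8 and 20.8 CPM in h2/h2. In h3/h3 it was 23.3, 19.8, 23.9 and 25.01 CPM and in h4/h4 22.1, 21.2, 21.6 and 19.6 CPM. All 15 mutant brains, h1/h1 included, were below the lowest control. The log2 differences were -0.22 (SE 0.07) in h1/h1, -0.42 (SE 0.07) in h2/h2, -0.34 (SE 0.08) in h3/h3 and -0.46 (SE 0.07) in h4/h4. In cord the controls were 30.1, 25.7 and 28.7 CPM. The ranges there were 21.3 to 24.5 CPM in h2/h2, 21.2 to 24.1 in h3/h3 and 20.9 to 22.02 in h4/h4, all below the controls (-0.28, -0.31 and -0.39), whereas h1/h1 overlapped them at 23.6 to 26.6 CPM (-0.18).

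*Ly6a*, which lies near *Ly6c1* on chromosome 15, had larger differences in brain than in cord, though the tissues were not tested against each other. Controls had 20.3, 17.8 and 18.9 CPM. The lowest and highest mutants were 15.3 and 17.5 CPM in h1/h1, 13.1 and 15.8 in h2/h2, 12.6 and 15.7 in h3/h3, and 13.2 and 14.8 in h4/h4, none of which reached a control. The log2 differences were -0.17, -0.42 (SE 0.08), -0.43 (SE 0.08) and -0.42 (SE 0.07). In cord, h4/h4 at 12.1 to 12.6 CPM lay below the controls at 13.3 to 15.8 (-0.27, SE 0.07), and h1/h1, h2/h2 and h3/h3 overlapped them (-0.14, -0.17 and -0.19).

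The glucose transporter *Slc2a1* was 91.5, 81.3 and 84.2 CPM in C57BL/6J brain. It was 67.6 to 75.4 CPM in h2/h2, 65.9 to 78.7 in h3/h3 and 66.2 to 69.0 in h4/h4, below every control (-0.24, SE 0.06, -0.23, SE 0.06, and -0.33, SE 0.05). In cord the controls were 117, 120.4 and 129 CPM, above the 98.1 to 110.2 CPM of h2/h2, the 99.0 to 109 of h3/h3 and the 99.5 to 114 of h4/h4 (-0.22, -0.23 and -0.21). The h1/h1 mice overlapped the controls in brain (-0.03) and in cord (-0.08).

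The other 2 transporters did not share this direction. *Slco1a4* was 63.3 to 65.7 CPM in control brains, and all 3 h1/h1 brains (69.5 to 77.3), all 4 h3/h3 brains (70.4 to 77.2) and all 4 h4/h4 brains (66.03 to 78.5) were above that range, by log2 0.19, 0.20 and 0.13. The h2/h2 brains overlapped it at 64.9 to 72.8 CPM (0.09). In cord its log2 difference was between 0.12 and 0.17 in the 4 strains compared with C57BL/6J, with the groups apart in h4/h4 (77.0 to 80.1 against 64.0 to 76.7 CPM). *Abcb1a* overlapped the controls in all of these comparisons, with log2 differences from -0.05 to 0.09.

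Junction and general endothelial genes had smaller differences than *Mfsd2a* and *Ly6c1* in h2/h2, h3/h3 and h4/h4 mice. *Cldn5* overlapped between groups in every comparison with C57BL/6J (-0.13 to 0.06), and its spread between mice was wide. It was 17.3 CPM in brain and 15.8 in cord of h3/h3 replicate 1, and 27.1 and 25.9 CPM in replicate 2. In h4/h4 it was 28.9 and 25.2 CPM in replicate 1, and 16.8 and 16.9 in replicate 2. These 4 mice were high or low in both tissues, whereas h4/h4 replicate 3 had 23.9 CPM in brain and 18.8 in cord. *Pecam1* had log2 differences of -0.09, -0.14, -0.13 and -0.21 in brain, with the groups apart in h4/h4 (20.3 to 23.0 against 24.2 to 26.5 CPM), and 0.02 to 0.05 in cord. *Flt1* was between -0.13 and -0.05 in all 8 comparisons, apart in h2/h2 and h4/h4 brain, where 92.0 to 98.8 and 92.5 to 95.8 CPM lay below the lowest control of 100.2. *Tek* ranged from -0.13 to 0.03, with overlap throughout.

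The h5/h5 mice were set against their own controls, DBA/1J. *Mfsd2a* was 12.6, 13.5 and 16.2 CPM in h5/h5 brain against 15.3, 15.2 and 16.4 (-0.15), and 24.5, 29.7 and 29.4 CPM in cord against 28.6, 29.9 and 32.9 (-0.12), with overlap in both. *Ly6c1* overlapped too, at 19.6, 23.6 and 25.2 CPM against 27.9, 25.7 and 22.6 in brain (-0.16) and 21.7, 24.1 and 26.5 against 25.9, 26.1 and 25.9 in cord (-0.10). Apart from their controls were *Flt1* in brain (88.9 to 99.2 against 101 to 106 CPM, -0.14) and *Slco1a4* in cord (66.8 to 76.2 against 60.4 to 65.2 CPM, 0.22).

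In the dissected h5/h5 hippocampus *Mfsd2a* was 13.4, 13.6 and 16.0 CPM, below the 17.2, 16.5 and 17.9 of DBA/1J (-0.27, SE 0.09). In cortex it was 13.6, 10.3 and 17.1 CPM against 21.2, 18.4 and 15.1 (-0.40, SE 0.18, and -0.59 to -0.12 over the alternatives), and in cerebellum 9.58, 7.70 and 11.7 against 10.4, 11.3 and 11.7 (-0.22), with overlap in both. *Ly6c1* in h5/h5 cortex, at 21.1, 15.4 and 22.3 CPM, lay just below the DBA/1J values of 34.2, 22.5 and 22.8 (-0.42, SE 0.19). This difference was -0.20 without DBA/1J replicate 1, which holds the 34.2, and -0.05 with the animal series as a block. All 10 genes had a negative difference in cortex, of -0.42 to -0.11, where that replicate was the highest of its group. *Cldn5* in cerebellum was 11.4 to 14.7 CPM in h5/h5, above the 9.43 to 10.9 of DBA/1J (0.31, SE 0.12, and 0.15 to 0.41 over the alternatives). *Flt1* there was 72.3 to 75.4 CPM, below the 75.8 to 80.9 of DBA/1J (-0.11, SE 0.05).

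Other cells' markers, summed in the same way, also stood apart between h5/h5 and DBA/1J. In cerebellum choroid plexus markers were 7.13 to 971 CPM in h5/h5 against 1266 to 1760, and astrocyte markers 2254 to 2303 against 2066 to 2197. Meningeal markers there were 111.2 to 115 against 104 to 109 CPM, and blood markers 183 to 336 against 150.3 to 179. In hippocampus smooth muscle markers were 29.9 to 32.3 CPM against 44.1 to 82.3, astrocyte markers 1450 to 1507 against 1250 to 1332, and forebrain markers 176 to 187 against 194 to 205. In cortex meningeal markers were 68.9 to 87.9 CPM against 49.2 to 55.3. In brain hemisections meningeal, astrocyte and cerebellar sums were above DBA/1J, and in cord astrocyte and oligodendrocyte sums. Their part in the values of the 10 genes was not tested.

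**Figure D2:**
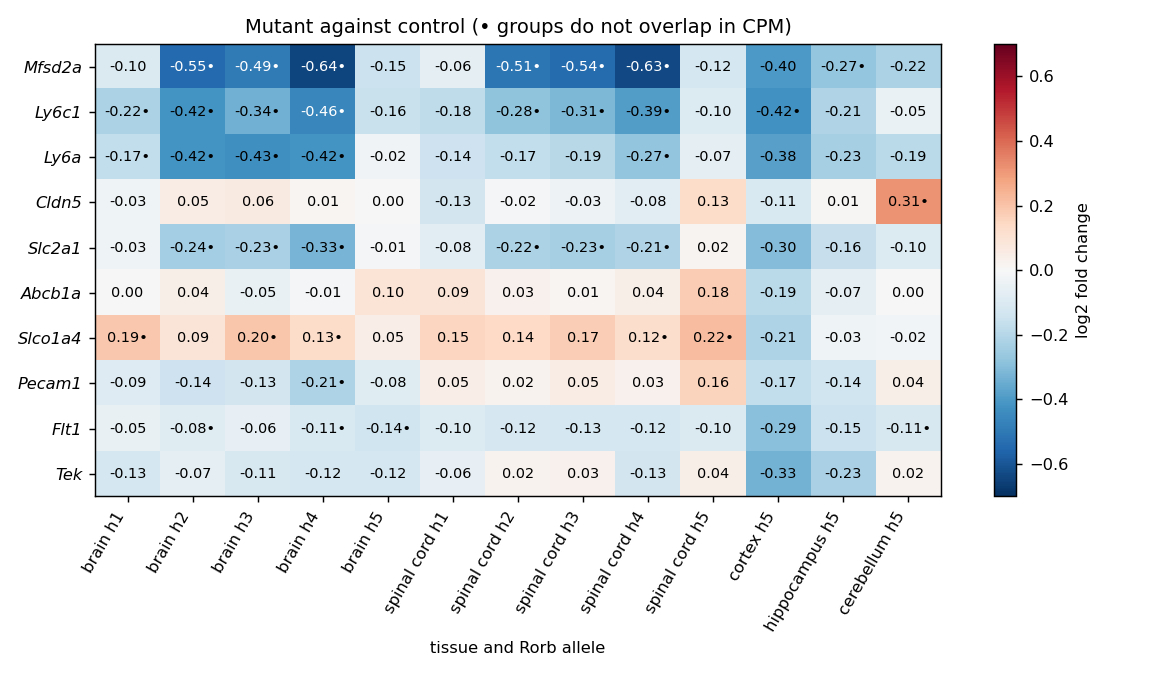
Log2 difference of each of the 10 genes (rows) between mutant and control in each tissue (columns; C57BL/6J for h1 to h4, DBA/1J for h5), from the fit across all genes, with blue for lower and red for higher in the mutant; a dot marks groups with no overlap in CPM. The values of *Mfsd2a* run from -0.64 to -0.49 in h2, h3 and h4, with no overlap, and those of *Abcb1a* from -0.05 to 0.04 in the same strains.

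Counts of genes past an adjusted p of 0.05 stand here beside the share over all genes tested, and nothing is read from them, since the genes were chosen with these comparisons known. In brain the count was 0 of 10 in h1/h1 (0.0% of all genes), 2 in h2/h2 (0.137%), 0 in h3/h3 (0.164%), 4 in h4/h4 (0.703%) and 0 in h5/h5 (0.0%). In cord it was 0 in h1/h1 (0.289%), 3 in h2/h2 (2.09%), 3 in h3/h3 (1.01%), 3 in h4/h4 (1.75%) and 0 in h5/h5 (0.00581%). It was 0 in h5/h5 cortex (0.0%), 0 in hippocampus (0.0118%) and 0 in cerebellum (0.012%). Same-numbered mutants and controls were different mice, but they deviated together in h1/h1 brain, h4/h4 brain and h4/h4 cord. With the replicate number as a block, the counts of all genes called there were 4 against 0, 243 against 125 and 231 against 305. Those of the 10 genes did not change. The genes called were *Mfsd2a* and *Ly6c1* in h2/h2 brain, these with *Slc2a1* and *Ly6a* in h4/h4 brain, and *Mfsd2a*, *Slc2a1* and *Ly6c1* in the 3 cords, all lower. Where edgeR called 0, genes with an unadjusted p under 0.05 and genes called by DESeq2 numbered 2 and 0 in h1/h1 brain, 5 and 4 in h3/h3 brain, 1 and 0 in h5/h5 brain, 2 and 0 in h1/h1 cord, 1 and 0 in h5/h5 cord, 0 and 0 in cortex, 2 and 0 in hippocampus and 2 and 0 in cerebellum. The count in h2/h2 brain depended on single libraries and was 0 or 1 without any one of the 7. Without C57BL/6J replicate 1 the count was 2 in h4/h4 brain, 1 in h2/h2 cord and 1 in h3/h3 cord. It was also 1 in h2/h2 cord without h2/h2 replicate 3, in h3/h3 cord without C57BL/6J replicate 3 or h3/h3 replicate 2 or 3, and in h3/h3 brain without h3/h3 replicate 1 or 4. The median log2 difference over the 10 genes was -0.11 in h2/h2, -0.12 in h3/h3 and -0.17 in h4/h4 brain, and -0.07, -0.08 and -0.13 in cord. Over all genes tested in these comparisons the medians lay between -0.0023 and 0.0047. Nothing is read from the medians of the 10 genes either, since the choice of genes favoured low values.

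Within each library the barrier genes were also set against the mean log2 CPM of *Pecam1*, *Flt1* and *Tek*. On this scale *Mfsd2a* in brain was -1.14 to -0.95 in C57BL/6J, -1.53 to -1.38 in h2/h2, -1.69 to -1.21 in h3/h3 and -1.58 to -1.32 in h4/h4. In cord it was 0.06 to 0.14 in C57BL/6J, -0.72 to -0.15 in h2/h2, -0.58 to -0.31 in h3/h3 and -0.70 to -0.19 in h4/h4. So *Mfsd2a* was low in these 3 strains relative to general endothelial genes too, with no overlap. *Ly6c1* in brain was -0.52 to -0.35 in C57BL/6J, -0.85 to -0.55 in h2/h2, -0.94 to -0.52 in h3/h3 and -0.83 to -0.62 in h4/h4, with h3/h3 just reaching the lowest control. *Slc2a1* in brain, unlike in CPM, overlapped the controls (1.04 to 1.17) in h2/h2 (0.83 to 1.16), h3/h3 (0.77 to 1.14) and h4/h4 (0.90 to 1.05). In cord it was 1.76 to 1.87 in C57BL/6J and below this in h2/h2 (1.55 to 1.72), with overlap in h3/h3 (1.47 to 1.76) and h4/h4 (1.58 to 1.84). *Slco1a4* in brain was 0.69 to 0.75 in C57BL/6J. It was above this in h1/h1 (0.92 to 1.06), h2/h2 (0.83 to 0.97), h3/h3 (0.86 to 1.11) and h4/h4 (0.89 to 1.24). In cord it was 0.85 to 1.17 in C57BL/6J, with overlap in h2/h2 (1.11 to 1.36) and h3/h3 (1.14 to 1.48). It was above this in h1/h1 (1.21 to 1.29) and h4/h4 (1.19 to 1.34). In h1/h1 brain *Ly6c1* (-0.58 to -0.48) and *Mfsd2a* (-1.09 to -0.92) overlapped the controls. These values use the same libraries and describe the difference on another scale.

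**Figure D3:**
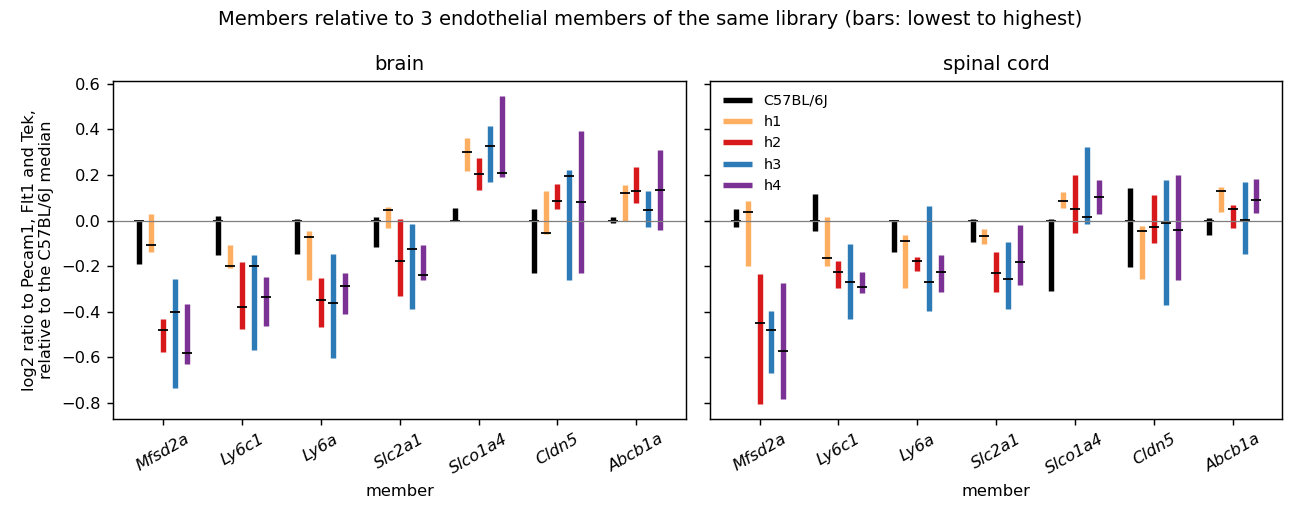
Log2 CPM of 7 genes minus the mean of *Pecam1*, *Flt1* and *Tek* in the same library, centred on the C57BL/6J median, in brain (left) and spinal cord (right); each bar runs from the lowest to the highest mouse of a group and the tick is its median. The bars of *Mfsd2a* in h2, h3 and h4 lie below the C57BL/6J bar in both tissues. The bars of *Slc2a1* in these strains overlap it in brain, and those of *Cldn5* overlap it in all but h2 brain, which lies above it.

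A wider set of 67 vascular genes in 7 lists (junction proteins, barrier transporters, the Wnt and beta-catenin pathway that keeps the barrier, angiogenic ligands and receptors, endothelial identity, caveolae, and *Ly6* neighbours) was read in the same fits. In h2/h2 cord 3 of 66 tested genes were called, against 2.09% of all genes: the organic anion transporter *Slc22a8* (log2 0.38) and the Wnt inhibitor *Apcdd1* (0.24), both higher, and the Norrin co-receptor *Tspan12* (-0.26). In h3/h3 cord 2 of 67 were called, against 1.01% of all genes, the junction proteins *F11r* (0.45) and *Jam2* (-0.18). None was called in the other 11 mutant comparisons. The median of the set lay between -0.03 and 0.05 in the brain and cord comparisons, and was -0.11 in h5/h5 cortex and -0.09 in h5/h5 hippocampus.

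Markers of other cells were summed in the same libraries. None of the 8 pericyte markers was at 0 in any brain or cord library. They summed to 293 to 301 CPM in C57BL/6J brain, 296 to 326 in h2/h2, 275 to 290 in h3/h3 and 267 to 301 in h4/h4. In cord the sums were 295.46 to 298 in C57BL/6J, 284 to 297 in h2/h2, 252 to 285 in h3/h3 and 255 to 295.29 CPM in h4/h4. They lay below all controls in h3/h3 in both tissues and in h4/h4 cord, as *Mfsd2a* did. Smooth muscle markers in brain were 45.4 to 49.8 CPM in controls and lower in h3/h3 (33.2 to 43.9) and h4/h4 (40.05 to 44.9). Microglial markers in cord were 121 to 127 CPM in controls and higher in h2/h2 (128.2 to 136), h3/h3 (133 to 146) and h4/h4 (128.2 to 132). In h3/h3 cord astrocyte sums (2501 to 2854 against 2911 to 3037 CPM) and oligodendrocyte sums (14972 to 19299 against 19462 to 20743 CPM) were also below the controls, and leukocyte sums above them (7.396 to 9.83 against 5.27 to 6.00 CPM). In h4/h4 cord leukocyte sums (6.27 to 7.17 CPM) and meningeal sums (64.2 to 70.8 against 51.006 to 56.3 CPM) were above the controls. The 5 blood markers (haemoglobins and *Alas2*) summed to 237 to 264 CPM in control brain against 181 to 248, 193 to 243 and 148 to 272, with overlap in all 3 strains. The 4 neuron markers in cord were 2796 to 2971 CPM in controls, 2679.6 to 2755 in h1/h1, 2581 to 2741 in h2/h2, 2666 to 3059 in h3/h3 and 2588 to 2829 in h4/h4, below the controls in h1/h1 and h2/h2. The part of these cells in the values of the 10 genes was not tested.

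The strains were compared in the unmutated mice. These are the controls against which the mutants were read when the genes were selected, so the differences of the 10 genes are a description too and are given without a p. In spinal cord *Slc2a1* was 102, 111 and 109 CPM in DBA/1J, below the 117, 120.4 and 129 of C57BL/6J (log2 -0.20, SE 0.04). *Mfsd2a* was 28.6, 29.9 and 32.9 CPM against 37.5, 34.7 and 36.7, with no overlap (-0.26, SE 0.06). *Slco1a4* was 60.7, 60.4 and 65.2 CPM against 76.7, 73.99 and 64.0, with overlap (-0.22, SE 0.06). These were the 3 of 10 past an adjusted p of 0.05, against 21.3% of all genes tested, and nothing is read from the count, which was 1 to 3 without single mice.

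In brain 0 of the 10 genes were past that threshold in edgeR, against 11.2% of all genes tested, with 3 at an unadjusted p under 0.05 and 1 by DESeq2. *Mfsd2a* was 15.3, 15.2 and 16.4 CPM in DBA/1J, below the 17.5 to 20.6 of C57BL/6J (-0.28, SE 0.09). *Abcb1a* was 40.6 to 47.0 against 48.9 to 52.4 CPM (-0.24, SE 0.07), and *Slco1a4* 52.2 to 59.0 against 63.3 to 65.7 CPM (-0.19, SE 0.06), both with no overlap. *Tek* was apart too, at 19.0 to 20.8 CPM in DBA/1J against 21.4 to 23.4. In cord *Abcb1a* (39.5 to 42.7 against 43.5 to 45.6 CPM) and, narrowly, *Tek* (15.3 to 18.60 against 18.61 to 20.7 CPM) were also below C57BL/6J with no overlap. The median over the 10 genes was -0.15 in brain and -0.12 in cord, against 0.01 over all genes in each. Cerebellar markers summed to 10.4 to 148 CPM in DBA/1J hemisections and 248 to 341 in C57BL/6J, and in the dissected regions *Mfsd2a* was low in cerebellum. Astrocyte sums (1211 to 1305 against 1320 to 1475 CPM) and oligodendrocyte sums (4438 to 5010 against 5079 to 5884 CPM) were also lower in DBA/1J brain. In DBA/1J cord smooth muscle sums (19.7 to 23.8 against 24.7 to 27.04 CPM) and astrocyte sums (2609 to 2902 against 2911 to 3037 CPM) were lower, and microglial sums (135 to 175 against 121 to 127 CPM) and leukocyte sums (7.54 to 12.7 against 5.27 to 6.00 CPM) higher. The part of these and of reading DBA/1J reads against a C57BL/6J-based genome was not tested, and the strains share no animal series. The strain difference did not pass the test for a difference between brain and cord for any of the 10 genes (0 against 0.321% of all genes, 0 at an unadjusted p under 0.05, 0 by DESeq2). For *Mfsd2a* that interaction was 0.01 (SE 0.11).

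In the wider set 10 of 66 genes were called between strains in brain, 9 lower and 1 higher in DBA/1J, against 11.2% of all genes. In cord 17 of 67 were called, 9 lower and 8 higher, against 21.3% of all genes. The caveolar protein *Cav2* was lower in both (-0.62, SE 0.07, adjusted p = 5.25e-04 in brain, and -0.73, SE 0.09, adjusted p = 3.97e-05 in cord), as were the junction protein *Jam2* (-0.43 and -0.23), the endothelial nitric oxide synthase *Nos3* (-0.48 and -0.58) and the TGF-beta co-receptor *Eng* (-0.38 and -0.27). *Plvap*, a protein of fenestrated vessels, was higher in both (0.76, SE 0.12, adjusted p = 0.00285, and 0.41, SE 0.10, adjusted p = 0.0109).

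Tissue was the comparison in which *Mfsd2a* differed most. The main fit here, and between the regions below, did not pair libraries of the same animal. The animal as a block was an alternative. In C57BL/6J it was 34.7 to 37.5 CPM in cord and 17.5 to 20.6 in brain (log2 0.93, SE 0.07, adjusted p = 7.1e-08), and in DBA/1J 28.6 to 32.9 against 15.2 to 16.4 CPM (0.95, SE 0.08, adjusted p = 5.46e-06). *Slc2a1* was higher in cord too, by 0.51 (SE 0.06, adjusted p = 4.01e-06) and 0.41 (SE 0.06, adjusted p = 3.62e-04). Lower in cord of C57BL/6J were *Ly6a* (-0.35, SE 0.08, adjusted p = 0.00225), *Pecam1* (-0.31, SE 0.06, adjusted p = 0.00113), *Tek* (-0.22, SE 0.07, adjusted p = 0.0181) and *Abcb1a* (-0.19, SE 0.05, adjusted p = 0.00835). In DBA/1J *Tek* was lower (-0.25, SE 0.09, adjusted p = 0.0381). *Pecam1* there was at -0.23 with an adjusted p of 0.0889, and 0.0305 with the animal as a block. In all, 6 of 10 were called in C57BL/6J (56.9% of all genes) and 3 of 10 in DBA/1J (50.8%), near the share of all genes in C57BL/6J and below it in DBA/1J. *Tek* was lost without C57BL/6J replicate 1 (0.197) or 2 (0.171), or without DBA/1J replicate 1 (0.146) or 3 (0.239), and *Abcb1a* without C57BL/6J replicate 2 (0.0976).

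Within single animals, mutants included, *Mfsd2a* was higher in cord than in brain in 24 of 24, by log2 0.70 to 1.26 (median 0.93). *Slc2a1* (0.33 to 0.72, median 0.51) and *Slco1a4* (0.00 to 0.38, median 0.18) were higher in 24 of 24 too. *Ly6a* was lower in 24 of 24 (-0.49 to -0.02). *Flt1*, *Tek* and *Abcb1a* were lower in 22 of 24 each, and *Ly6c1* was higher in 13 and lower in 11. The cords held far more oligodendrocyte RNA, with 4 markers summing to 19462 to 20743 CPM in C57BL/6J against 5079 to 5884 in brain, and pericyte sums of 295 to 298 against 293 to 301. Astrocyte sums were higher in cord (2911 to 3037 against 1320 to 1475 CPM), and smooth muscle sums (24.7 to 27.04 against 45.4 to 49.8 CPM) and meningeal sums (51.006 to 56.3 against 79.2 to 85.0 CPM) were lower. Choroid plexus sums (5.41 to 6.92 against 352 to 498 CPM) and neuron sums (2796 to 2971 against 3046 to 3607 CPM) were lower in cord too. The part of cell composition was not tested.

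**Figure D4:**
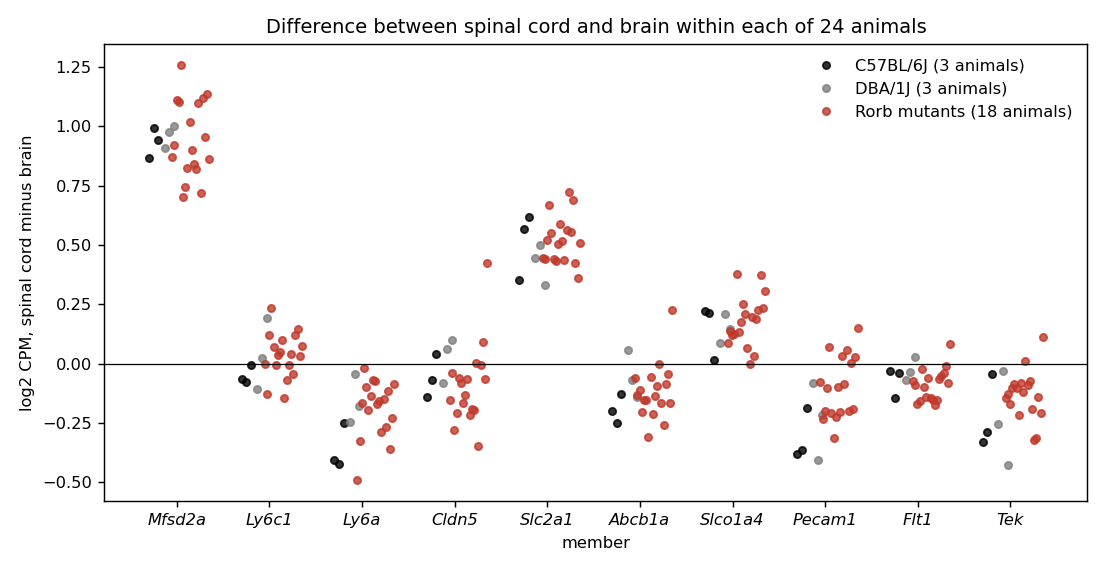
Log2 CPM of spinal cord minus brain of the same animal for each of the 10 genes, with one point for each of 24 animals (black C57BL/6J, grey DBA/1J, red *Rorb* mutants). All points of *Mfsd2a* lie between 0.70 and 1.26 and those of *Ly6a* between -0.49 and -0.02.

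In the wider set 35 of 66 genes were called between cord and brain of C57BL/6J, 13 higher and 22 lower in cord, against 56.9% of all genes, and 31 of 67 in DBA/1J, 13 higher and 18 lower, against 50.8%. Of 16 genes of the Wnt and beta-catenin pathway 8 were called in C57BL/6J, no more than the share of all genes, and 7 of them were lower in cord, among them the ligand *Wnt7a* (-0.87) and the target *Axin2* (-0.73), while *Tspan12* was higher (1.38, SE 0.08, adjusted p = 4.78e-09). The monocarboxylate transporter *Slc16a1* was higher in cord of both strains (0.85 and 0.78), and the sialomucin *Cd34* (-0.88 and -0.78) and the *Ly6* family gene *Ly6e* (-0.85 and -0.70) were lower. Glia and neurons also express several of these genes.

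Among regions of DBA/1J brain *Mfsd2a* was low in cerebellum. It was 10.4, 11.3 and 11.7 CPM there, 21.2, 18.4 and 15.1 in cortex and 17.2, 16.5 and 17.9 in hippocampus. Cerebellum was below cortex (-0.74, SE 0.13, adjusted p = 7.23e-04) and hippocampus above cerebellum (0.63, SE 0.08, adjusted p = 5.03e-05), and both held in 6 of 6 animals when the h5/h5 mice were counted (-1.02 to -0.37, and 0.46 to 0.82). *Tek* went the same way, with 12.2 to 16.6 CPM in cerebellum, 14.9 to 28.8 in cortex and 17.1 to 20.3 in hippocampus (-0.62, SE 0.21, adjusted p = 0.0326, and 0.43, SE 0.12, adjusted p = 0.00755). Without animal 2 the adjusted p of *Tek* was 0.145 and 0.062. *Ly6c1* was 20.6 to 21.0 CPM in cerebellum, below cortex (-0.39, SE 0.15, adjusted p = 0.0482). That call was lost without animal 1 (-0.16, adjusted p = 0.219), the one whose cortex stood apart, or without animal 2 (0.0899).

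The call count was 3 of 10 between cerebellum and cortex (58.1% of all genes), 5 of 10 between hippocampus and cerebellum (64.0%) and 0 of 10 between hippocampus and cortex (20.6%, with 2 genes at an unadjusted p under 0.05 and 2 called by DESeq2). Between cerebellum and cortex the animal as a block added *Flt1* (-0.34, adjusted p = 0.0345) and *Pecam1* (-0.34, adjusted p = 0.032), for 5 in all, and 8 were called without animal 3 and 1 without animal 2. Hippocampus was above cerebellum in *Cldn5* (0.28, SE 0.10, adjusted p = 0.0315) and below it in *Slc2a1* (-0.17, SE 0.05, adjusted p = 0.017) and *Abcb1a* (-0.15, SE 0.06, adjusted p = 0.0412, and 0.0642 with the block). Under the block *Pecam1* was also higher in hippocampus (0.24, adjusted p = 0.026). Without single animals 1 to 3 genes remained past the threshold: *Cldn5* was lost without animal 1 (0.22) or 2 (0.085), *Slc2a1* without animal 2 (0.0572) or 3 (0.131) and *Abcb1a* without any one (0.12 to 0.196). With the block *Slc2a1* (-0.31, adjusted p = 0.0478) and *Abcb1a* (-0.40, adjusted p = 0.037) were lower in hippocampus than in cortex.

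Counted over all 6 animals, *Abcb1a* was lowest in hippocampus and *Flt1* highest in cortex in 6 of 6. *Slc2a1* was lower in hippocampus than in each other region in 6 of 6. Other called differences did not hold in all. *Cldn5* was higher in hippocampus than in cerebellum in 4 of 6 (-0.25 to 0.47). *Ly6c1* was lower in cerebellum than in cortex in 4 of 6 (-0.73 to 0.15). Pericyte markers summed to 261 to 411 CPM in DBA/1J cortex, with the highest in replicate 1, 280 to 317 in hippocampus and 266 to 296 in cerebellum. Choroid plexus markers, which follow the dissection, ranged from 13.3 to 484 CPM in cortex, 814 to 3339 in hippocampus and 1266 to 1760 in cerebellum. Astrocyte sums were 2066 to 2197 CPM in cerebellum, 945 to 1243 in cortex and 1250 to 1332 in hippocampus, and microglial sums 44.3 to 47.6, 178 to 221 and 150.3 to 162. In the same order of regions smooth muscle sums were 23.1 to 33.3, 28.5 to 48.5 and 44.1 to 82.3 CPM. Meningeal sums were 104 to 109, 49.2 to 55.3 and 85.2 to 133 CPM, and neuron sums 2945 to 3278, 3992 to 4470 and 3296 to 3363 CPM. The part of these cells was not tested.

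**Figure D5:**
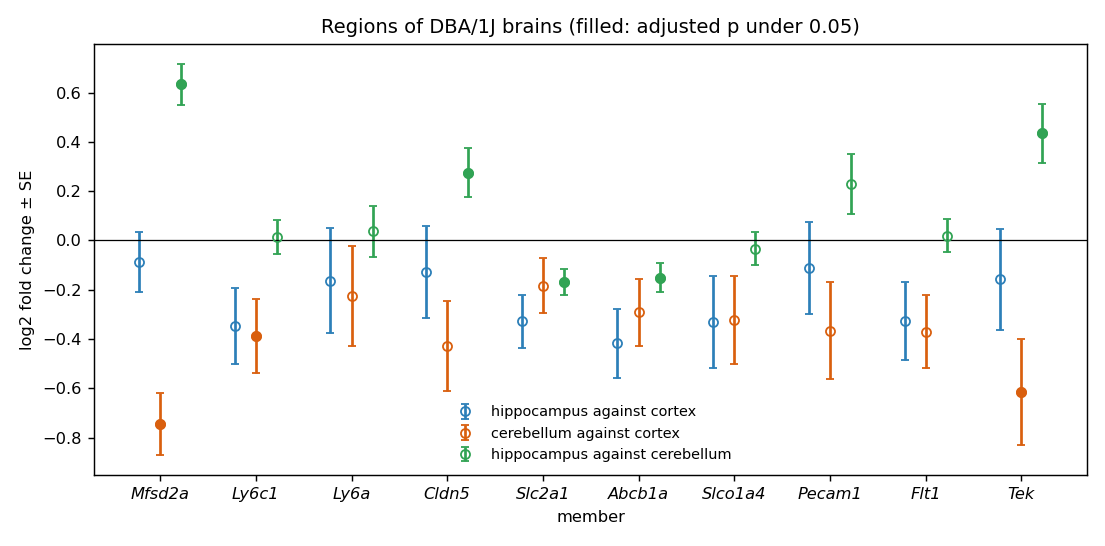
Log2 difference between dissected regions of DBA/1J brain for each of the 10 genes, with 3 animals and SE bars from the fit across all genes; filled points passed an adjusted p of 0.05. *Mfsd2a* and *Tek* are below cortex in cerebellum (-0.74 and -0.62) and above cerebellum in hippocampus (0.63 and 0.43).

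In the wider set 38 of 66 genes were called between cerebellum and cortex, 15 higher and 23 lower in cerebellum, against 58.1% of all genes. Between hippocampus and cerebellum 31 were called, 19 higher and 12 lower in hippocampus, against 64.0% of all genes, and between hippocampus and cortex 10, 5 each way, against 20.6%. Of 12 endothelial identity genes 7 were called between cerebellum and cortex, about the share of all genes. All 7 were lower in cerebellum, among them *Cd34* (-2.54, SE 0.16, adjusted p = 8.89e-07) and the secreted endothelial protein *Egfl7* (-1.19, SE 0.18, adjusted p = 4e-04). DBA/1J cortex replicate 1, the highest of its group for all 10 genes and for pericyte sums, is part of this comparison. The wider set was not read without it, and nothing is read from the shared direction. *Cav2* was lower as well (-1.94, SE 0.14, adjusted p = 2.04e-06), and *Wnt7a* (2.18) and *Wnt7b* (-2.27), both ligands of the barrier pathway, went in opposite directions.

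The labelled sex was compared with group as a term over all 24 brains and all 24 cords. None of the 10 genes passed in brain (0 against 0.0761% of all genes, 1 at an unadjusted p under 0.05, 0 by DESeq2) or in cord (0 against 0.164%, 2 at an unadjusted p under 0.05, 0 by DESeq2). The difference of males from females for *Mfsd2a* was -0.05 (SE 0.05) in brain and -0.05 (SE 0.06) in cord. For *Abcb1a* in cord it was -0.11 (SE 0.04, adjusted p = 0.618, and 0.0415 with no filter on low counts).

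Levels of different genes were compared in TPM, the transcript level scaled for length and depth. In C57BL/6J brain the order was *Ly6c1* (99.5 ± 5.9 TPM, SD, n = 3), *Slco1a4* (60.5 ± 5.5), *Slc2a1* (54.4 ± 1.6), *Ly6a* (52.7 ± 0.59), *Cldn5* (36.2 ± 5.6), *Flt1* (29.5 ± 0.91), *Mfsd2a* (21.2 ± 1.2), *Abcb1a* (19.97 ± 1.1), *Pecam1* (15.8 ± 0.86) and *Tek* (9.81 ± 0.62). The neighbours *Slc2a1* and *Ly6a*, *Cldn5* and *Flt1*, and *Mfsd2a* and *Abcb1a* overlapped between mice, and the other neighbours did not. In cord *Mfsd2a* was at rank 5, with 39.8 ± 2.9 TPM, overlapping *Ly6a* at 42.3 ± 4.0, behind *Ly6c1* (94.7 ± 10.3), *Slc2a1* (76.4 ± 6.6) and *Slco1a4* (62.8 ± 3.5). In h4/h4 brain *Mfsd2a* was at rank 9, with 12.4 ± 1.6 TPM, next to *Pecam1* (13.1 ± 0.62). *Ly6c1* there (70.2 ± 5.0) overlapped *Slco1a4* (63.8 ± 11.3).

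Across the 48 brain and cord libraries, after subtracting each group's mean log2 CPM, *Mfsd2a* varied with *Slc2a1* (r = 0.61), *Ly6c1* (0.53) and *Ly6a* (0.36), and little with *Flt1* (-0.03) or *Abcb1a* (0.11). *Ly6c1* and *Ly6a* had r = 0.70 and *Ly6c1* and *Slc2a1* 0.60. *Cldn5* followed *Tek* (0.52) and went against *Slc2a1* (-0.36). Over 16111 genes the most like *Mfsd2a* were *Kctd3* (0.64), *Itprid2* (0.63), *Lfng* (0.63), *Glul* (0.63) and *Slc2a1*, and the most like *Ly6c1* were *Tsc22d3* (0.75), *Ly6a*, *Gpt2* (0.68), *Herpud1* (0.65) and *Stk38l* (0.62). The 48 libraries come from 24 animals and share their animal between tissues, and depth differs between them, so these correlations carry no p.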

How the data were processed

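Libraries were made from poly(A) RNA with the KAPA mRNA HyperPrep kit and read as pairs on a NovaSeq, and strand use was not given in the sources used here. The deposited expected counts are RSEM estimates per gene, which the authors made after trimming (Trim Galore) and alignment to GRCm38, and which share out reads that fit several genes. The deposited TPM values were scaled by the authors for transcript length and depth in RSEM. The annotation release is not given in the sources used here.

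The quasi-likelihood test of edgeR 4.0.16 under R 4.3.3, with TMM scaling and the filterByExpr filter, was run on expected counts rounded to whole numbers, in the groups compared and over all genes, at a Benjamini-Hochberg adjusted p of 0.05. CPM used TMM library sizes. A positive log2 difference means higher in the group named first. Alternatives were DESeq2 1.42.0, its size factors in edgeR, no filter on low counts, labelled sex, the replicate number or animal as a block, the animal series as a block, and leaving out each replicate. The tests were checked on simulated counts.

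The 10 genes and all lists were chosen with earlier results of these data known. Named from the lists are up to 3 called genes each with the smallest adjusted p, and the 5 genes most like *Mfsd2a* and *Ly6c1*. Same-numbered mutants and controls deviated together (every correlation above 0.1) in h1/h1 brain (0.16 to 0.33), h4/h4 brain (0.17 to 0.23) and h4/h4 cord (0.10 to 0.26), and tissues or regions of one number came from one animal. Replicates are separate animals by their identifiers. Of 78 replicate pairs 0 were identical.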

Additional observations from a re-analysis of the deposited data

Results flagged for a closer look

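A mouse was far from the others of its group in 3 of 60 combinations of gene and group of 4 mice, as Dixon's test would give for about 1 in 20 by chance. *Cldn5* in h2/h2 brain was 20.8 CPM in replicate 2 against 24.1 to 24.4 in the others. *Slco1a4* in h4/h4 brain was 78.5 CPM in replicate 2 against 66.03 to 67.9, which does not change that all 4 lay above the controls. *Tek* in h3/h3 brain was 22.5 CPM in replicate 2 against 20.2 to 20.3.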

How the results depend on the processing

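Of the counts of the 10 genes called, all 23 stayed within 1.5 times with DESeq2's size factors in edgeR. With DESeq2 itself the count was 4 (against 0) in h3/h3 brain, 1 (against 0) between strains in brain, 2 (against 0) between hippocampus and cortex and 3 (against 5) between hippocampus and cerebellum. With no filter on low counts these 4 were 2, 1, 2 and 3, and it was 1 (against 0) in h1/h1 cord, 5 (against 3) in h2/h2 cord and 1 (against 0) for sex in cord. The count in h2/h2 brain was 0 (against 2) with sex as a covariate and 0 with the replicate block, where same-numbered mice did not deviate together. The block by animal gave 2 (against 0) between hippocampus and cortex and 5 (against 3) between cerebellum and cortex. In h1/h1 brain, h4/h4 brain and h4/h4 cord, where same-numbered mice deviated together, the block changed no call of the 10 genes. Without single replicates the count ran from 0 to 1 in h2/h2 brain, 0 to 1 in h3/h3 brain, 2 to 4 in h4/h4 brain, 1 to 4 in h2/h2 cord, 1 to 3 in h3/h3 cord, 2 to 3 in h4/h4 cord, 0 to 1 and 1 to 3 between strains in brain and cord, 4 to 7 and 2 to 3 between tissues in C57BL/6J and DBA/1J, 0 to 1 between hippocampus and cortex, 1 to 8 between cerebellum and cortex and 1 to 3 between hippocampus and cerebellum. The cause was not tested. No called value changed sign. Over all genes the calls of DESeq2 were more than 1.5 times those of edgeR in several mutant comparisons, such as 443 against 125 in h4/h4 brain and 190 against 29 in h3/h3 brain. The lowest value of the 10 genes in any library was 7.70 CPM (*Mfsd2a* in h5/h5 cerebellum), so no value rests on a handful of reads. The small number of mice is one limit of the comparisons.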

Other observations

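The genes most like some of the other members over the 48 brain and cord libraries, by the same correlation within groups, were picked once their values had been seen. *Cldn5* varied most like *Mmp14*, a membrane-bound matrix protease (r = 0.84), and *Lpar1*, a lysophosphatidic acid receptor (0.74). *Ly6a* varied most like *Acvrl1*, a TGF-beta family receptor of endothelium (0.75), and *Slc2a1* like *Timp3*, an inhibitor of matrix proteases (0.75). These are descriptions over libraries that share animals.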
